A study of Mus musculus with 24 samples.

Results

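The genes described here are those of MHC class II antigen presentation, and their levels and m6A peaks were followed in CD11b+ myeloid cells from MC38 tumours of mice. The list was fixed by symbol and held 10 of the 54446 gene identifiers in the count files: H2-Aa, H2-Ab1, H2-Eb1, H2-DMa, H2-DMb1, H2-DMb2, H2-Oa, H2-Ob, Cd74 and Ciita. MC38 is a colon carcinoma line that was grown under the skin of the mice. WT mice carried floxed Ythdf2 without Cre, and Ythdf2 cKO mice carried it together with Cre driven from the Lyz2 locus, which is active in myeloid cells. Mice were 8 to 10 weeks old according to the methods of the study. Tumours were unirradiated (Ctrl) or had received a single dose of 20 Gy 3 days before the cells were taken (IR). Each of these 4 combinations had 3 Input libraries of polyadenylated RNA and 3 libraries of RNA fragments enriched with an m6A antibody (m6A IP, where m6A is N6-methyladenosine), so that 24 libraries formed 8 groups. The methods describe pooling of several irradiated Ythdf2 flox/flox mice for a replicate, and they call the replicates technical in one place and biological in another. SEs and p-values therefore measure the spread between libraries, which may be technical.

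Class II molecules are pairs of an alpha and a beta chain at the surface of antigen-presenting cells that show peptides from engulfed material to CD4 T cells. In the endoplasmic reticulum the pair binds the invariant chain, encoded by Cd74, which fills the groove and guides the complex to endosomes. There H2-DM removes the last invariant chain fragment and selects peptides, and H2-O restrains H2-DM. Ciita encodes the transactivator that is needed for transcription of nearly all of these genes. Dendritic cells, B cells and activated macrophages are the main cells that express them. YTHDF2 is a reader protein that recognises m6A on a transcript and speeds up its degradation.

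On GRCm38 (mm10), 8 of the 10 genes lie together on chromosome 17. H2-Aa (ENSMUSG00000036594.14, chr17:34282744-34287823, minus strand) and H2-Eb1 (ENSMUSG00000060586.10, chr17:34305867-34316674, plus strand) encode chains of the classical molecules, as does H2-Ab1 (ENSMUSG00000073421.5, chr17:34257689-34269419, plus strand). H2-DMa (ENSMUSG00000037649.9, chr17:34119541-34139101), H2-DMb2 (ENSMUSG00000037548.14, chr17:34143307-34151555) and H2-DMb1 (ENSMUSG00000079547.3, chr17:34153072-34160230) follow each other on the plus strand. H2-Oa (ENSMUSG00000024334.8, chr17:34092340-34095234) and H2-Ob (ENSMUSG00000041538.15, chr17:34238903-34254414) are on the plus strand as well. Cd74 (ENSMUSG00000024610.14, chr18:60803848-60812652) and Ciita (ENSMUSG00000022504.10, chr16:10480059-10528418) are elsewhere, both on the plus strand. H2-DMb1 and H2-DMb2 are near-identical copies, so that the split of reads between them is uncertain. H2-DMa overlaps CR974462.3 on its own strand, and Brd2, CR974462.4 and Gm20493 on the other. H2-Eb1, H2-Oa and Ciita overlap Gm20513, BC051537 and Dexi on the opposite strand, and whether the gene counting used strand was not given in the sources used here.

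Input libraries held 65180075 to 83661576 gene counts, and IP libraries 68846321 to 86421888. Itgam, which encodes CD11b, stood at 328 to 416 CPM (counts per 1e6 gene counts, scaled by TMM factors) over the 12 Inputs. The targeted gene Ythdf2 went against the genotype labels, since its Input level was 95.6 to 98.1 CPM in WT Ctrl and 104 to 107 CPM in WT IR, against 174 to 185 CPM in the libraries labelled cKO Ctrl and 217 to 231 CPM in those labelled cKO IR. Gene counts do not show whether the floxed part was transcribed. Lyz2, the locus of the Cre insertion, stood at 20056 to 21462 CPM in the WT Inputs and 296 to 414 CPM in the cKO Inputs. In the IP libraries it was at 15641 to 16500 CPM in WT Ctrl and 86.7 to 91.8 CPM in cKO Ctrl, but at 88.5 to 91.1 CPM in the libraries labelled WT IR and 19517 to 19808 CPM in those labelled cKO IR. In the irradiated IP libraries Lyz2 thus stood on the side of the opposite genotype. These libraries are named below by label only, and their IP over Input is also given against the irradiated Inputs of the other label. Among the Inputs, WT IR replicate 1 differed from replicates 2 and 3 by a chi-square per degree of freedom of 42.4 and 20.0 over genes, against 3.56 to 10.6 for the other pairs within groups. Input results that rest on WT IR are therefore also given without it.

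The promoters of class II genes are known for a row of short elements, the last of which, the Y box, holds the letters GATTGG and binds NF-Y. RefSeq start sites on GRCm38.p6 gave 8 promoters, from 250 bases before to 50 bases after the start, for 7 of the 10 genes, and none for H2-Ab1, Cd74 and Ciita. GATTGG was found on either strand in 7 of the 8 promoters, and in 16.1% of the 32851 promoters of the reference. The letters TGATGC, part of the X2 element just upstream of the Y box in some class II genes, were found in 4 of 8 and in 10.9% of all promoters, and both together in 4 of 8 and in 1.72%. The letters were chosen after the sequences had been seen, so the shares are descriptions. The 6 boxes within 100 bases before a start and on the strand of the gene are shown, leaving out one of H2-DMa at 199 bases, because they are what these genes share in sequence. Each is read 5′ to 3′ on the strand of its gene and ends in GATTGG, with both motifs in capitals.
H2-Aa, chr17:34287867-34287896, minus strand: gacgtcatcacaagagaattttctGATTGG
H2-Eb1, chr17:34305783-34305812, plus strand: aTGATGCtggactccttTGATGCtGATTGG
H2-DMb1, chr17:34153105-34153134, plus strand: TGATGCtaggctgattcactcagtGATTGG
H2-DMb2, chr17:34145134-34145163, plus strand: TGATGCtaggctaagtcacttagtGATTGG
H2-Ob, chr17:34238823-34238852, plus strand: aaaTGATGCaaagtcttcgctcttGATTGG
H2-Oa, chr17:34092311-34092340, plus strand: cccattatctcagagaactgctctGATTGG
The boxes began 49 bases before the start in H2-Aa, 60 in H2-Eb1, 62 in H2-DMb1, 91 in H2-DMb2, 58 in H2-Ob and 44 in H2-Oa. H2-DMb1 and H2-DMb2 had TGATGC and GATTGG at the same distance, with 18 bases between them. H2-Oa and H2-Aa had no TGATGC in the stretch shown.

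Input RNA was dominated by the invariant chain and the classical chains. The 10 genes together took 0.753 to 0.764% of gene counts in WT Ctrl, 0.619 to 0.690% in WT IR, 0.859 to 0.868% in cKO Ctrl and 0.767 to 0.798% in cKO IR. Cd74, H2-Ab1, H2-Aa and H2-Eb1 held 97.1 to 97.5% of these counts in the 12 Inputs. Divided by the length of the principal transcript, the WT Ctrl level was 3224 ± 33.7 CPM per kb for Cd74, 961 ± 16.0 for H2-Ab1, 756 ± 4.73 for H2-Aa and 492 ± 5.61 for H2-Eb1 (SD, n = 3). The peptide editor followed at 42.9 ± 1.46 CPM per kb for H2-DMb1 and 35.4 ± 1.72 for H2-DMa, and the transactivator Ciita at 11.9 ± 0.470 (SD, n = 3). H2-DMb2 at 8.01 ± 0.306 and H2-Oa at 7.42 ± 0.918 CPM per kb did not differ beyond the spread of their libraries in WT Ctrl, and H2-Ob was at 0.166 ± 0.0876 (SD, n = 3). This order was the same in WT IR and cKO Ctrl, and in cKO IR H2-DMb2 (12.99 ± 0.551 CPM per kb) stood above Ciita (11.73 CPM per kb). H2-Ob rested on 9 to 52 counts per Input library, so that differences of its level were not detectable at this depth. In these bulk samples, fewer cells that express class II and less RNA per cell cannot be told apart.

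**Figure D1:**
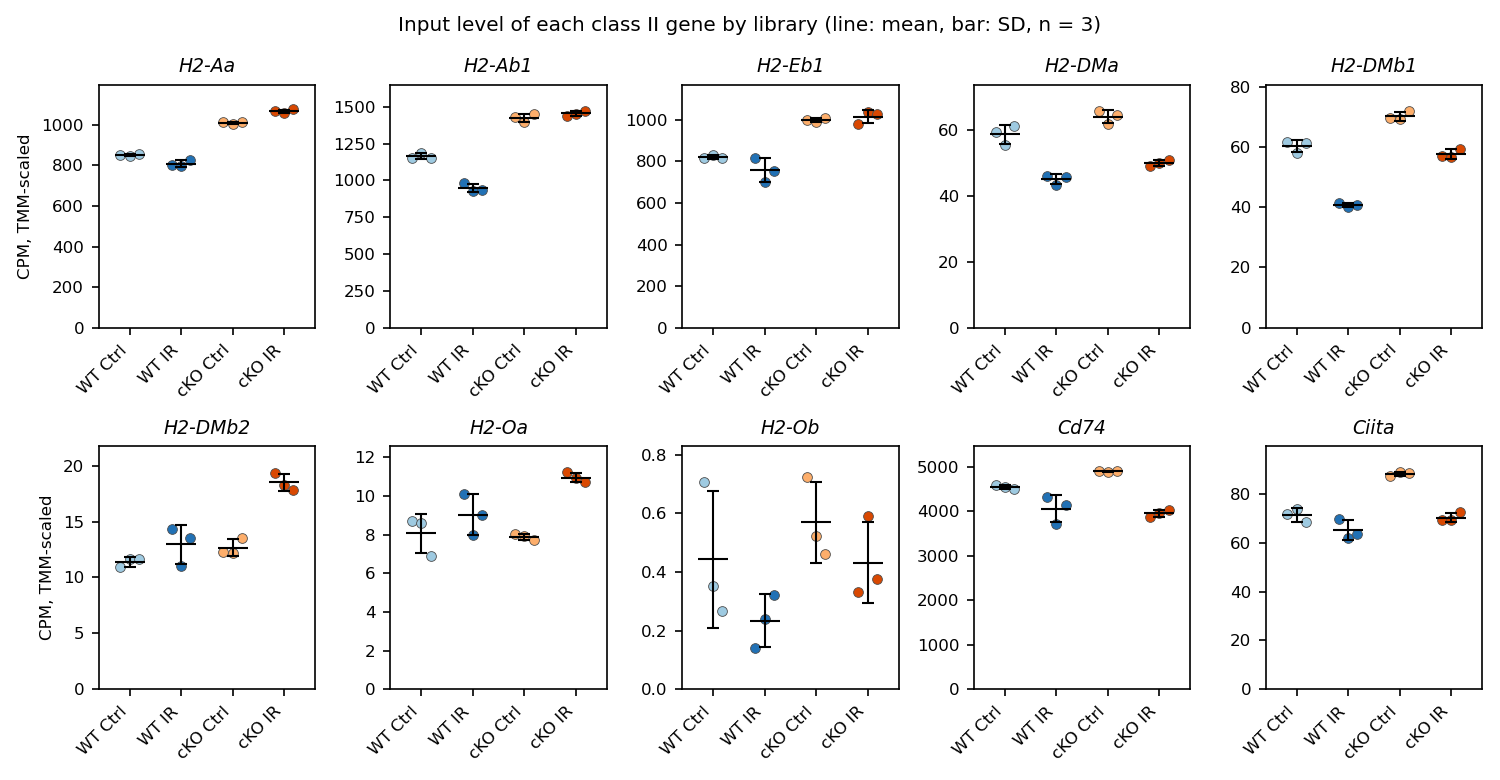
Input level of the 10 class II genes in CPM, scaled by TMM factors over the 12 Inputs, with each point a library, the line the mean and the bar the SD of 3 libraries. H2-Ab1 was lowest in WT IR (931 to 983 CPM) and highest in cKO IR and cKO Ctrl, where all 6 libraries were at 1398 CPM or above.

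The effect of irradiation in WT was read from WT IR vs WT Ctrl, which asks how irradiation changed RNA of myeloid cells in the tumour. Calls are from edgeR's quasi-likelihood test with Benjamini-Hochberg adjustment over the 16090 genes with enough Input counts, at an adjusted p under 0.05. In WT, class II RNA was lower after irradiation, most for the peptide editor and H2-Ab1 and little for the other classical chains. H2-DMb1, the beta chain of H2-DM, was at 61.6, 57.9 and 61.3 CPM in WT Ctrl and at 41.5, 40.1 and 40.8 CPM in WT IR, a fall by 0.56 (log2 fold, as below, with SE 0.04 and edgeR adjusted p 1.4e-09). H2-DMa, its alpha chain, was at 59.5, 55.5 and 61.1 CPM against 45.9, 43.2 and 45.8 CPM and fell by 0.38 (SE 0.05, edgeR adjusted p 1.2e-06). For both genes every WT IR library was below every WT Ctrl library. How many of all genes had groups without overlap was not counted, here or in the comparisons below. H2-Ab1 was at 1156, 1187 and 1152 CPM in WT Ctrl and at 983, 931 and 933 CPM in WT IR, and fell by 0.30 (SE 0.03, edgeR adjusted p 6e-08). Cd74 was at 4597, 4537 and 4503 CPM against 4307, 3715 and 4133 CPM, a fall by 0.17 (SE 0.04, edgeR adjusted p 0.001). The groups of H2-Ab1 and of Cd74 did not overlap, and the 3 WT IR libraries of Cd74 lay further apart than those of any other group.

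The other called differences in WT were small. H2-Aa fell by 0.08 (SE 0.03, edgeR adjusted p 0.029), from 853 ± 5.34 to 809 ± 17.4 CPM, and H2-Eb1 by 0.12 (SE 0.04, edgeR adjusted p 0.029), from 821 ± 9.37 to 756 ± 57.8 CPM (SD, n = 3). Ciita was at 72.1, 73.99 and 68.4 CPM in WT Ctrl and at 70.0, 62.2 and 63.6 CPM in WT IR, a fall by 0.13 (SE 0.05, edgeR adjusted p 0.031). Libraries of H2-Eb1 and of Ciita overlapped between the groups, and the calls of H2-Aa, H2-Eb1 and Ciita were lost when only the 6 libraries compared were fitted and when any of several single libraries was left out. H2-DMb2 (log2 fold 0.18, SE 0.08), H2-Oa (0.16, SE 0.10) and H2-Ob (-0.91, SE 0.45) did not pass the test. Thus 7 of the 10 genes were lower and 0 higher, beside 17% and 14.7% of the 16090 genes tested. The median log2 fold of the 10 genes was -0.15, and that of all genes 0.01. Without WT IR Input replicate 1 the count was 7 as well, with H2-Ab1 at -0.32, Cd74 at -0.21 and Ciita at -0.18.

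In the libraries labelled cKO the same treatment moved the genes in both directions. Cd74 was at 4891, 4881 and 4906 CPM in cKO Ctrl and at 3876, 3947 and 4025 CPM in cKO IR, and fell by 0.31 (SE 0.04, edgeR adjusted p 5.6e-07). Ciita was at 87.4, 89.3 and 88.5 CPM against 69.6, 69.3 and 72.6 CPM, a fall by 0.33 (SE 0.04, edgeR adjusted p 4.5e-06). H2-DMa fell by 0.36 (SE 0.04, edgeR adjusted p 1.4e-06), from 64.0 ± 1.93 to 49.99 ± 0.883 CPM, and H2-DMb1 by 0.28 (SE 0.04, edgeR adjusted p 7.6e-06), from 70.2 ± 1.41 to 57.7 ± 1.52 CPM (SD, n = 3). No library of these 4 genes overlapped between cKO Ctrl and cKO IR, and the share of all genes without overlap was not counted.

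The paralog H2-DMb2 went the other way, from 12.3, 12.2 and 13.5 CPM in cKO Ctrl to 19.4, 18.3 and 17.8 CPM in cKO IR, a rise of 0.55 (SE 0.08, edgeR adjusted p 1.3e-05). H2-Oa, the alpha chain of the H2-DM inhibitor, was at 8.03, 7.91 and 7.74 CPM against 11.2, 10.9 and 10.7 CPM and rose by 0.47 (SE 0.09, edgeR adjusted p 0.0003). Both genes were higher in every cKO IR library than in any cKO Ctrl library. H2-Aa rose by 0.08 (SE 0.03, edgeR adjusted p 0.014), from 1010 ± 3.73 to 1068 ± 8.05 CPM (SD, n = 3). H2-Ab1 and H2-Eb1 had log2 folds of 0.03 (SE 0.03) and 0.02 (SE 0.04) and did not pass the test, nor did H2-Ob at -0.39 (SE 0.42). In all, 3 of the 10 genes were higher, beside 21.8% of all genes tested, and 4 were lower, beside 23.8%.

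The interaction subtracts the effect of irradiation in WT from that in cKO and tests whether they differed. It was called for 6 of the 10 genes, beside 30.2% of the 16090 genes tested. The effect was more positive in cKO for H2-DMb2 (0.36, SE 0.12, edgeR adjusted p 0.024), H2-Ab1 (0.33, SE 0.04, edgeR adjusted p 3.3e-06), H2-DMb1 (0.28, SE 0.06, edgeR adjusted p 0.00088) and H2-Aa (0.16, SE 0.04, edgeR adjusted p 0.002). It was more negative in cKO for Ciita (-0.20, SE 0.06, edgeR adjusted p 0.025) and Cd74 (-0.14, SE 0.05, edgeR adjusted p 0.039). The transactivator thus moved opposite to the chains H2-Ab1, H2-Aa and H2-DMb1 in this difference. The calls of Cd74, Ciita and H2-DMb2 were each lost when one of several single libraries was left out, and the number of members called ranged from 3 to 8 over these fits. It was 8 without WT IR Input replicate 1, where H2-Eb1 (0.20) and H2-Oa (0.40) were called too. H2-Eb1 (0.14, SE 0.06), H2-DMa (0.03, SE 0.06), H2-Oa (0.31, SE 0.13) and H2-Ob (0.51, SE 0.62) were not called.

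Between genotypes, the classical chains were higher in the Inputs labelled cKO, before and after irradiation. Without irradiation H2-Ab1 was at 1156, 1187 and 1152 CPM in WT Ctrl and at 1430, 1398 and 1449 CPM in cKO Ctrl, a difference of 0.29 (SE 0.03, edgeR adjusted p 2.4e-07). H2-Eb1 was at 816, 831 and 814 CPM against 999, 991 and 1007 CPM, higher by 0.28 (SE 0.04, edgeR adjusted p 3.2e-05). H2-Aa was at 853, 848 and 858 CPM against 1012, 1006 and 1012 CPM, higher by 0.24 (SE 0.03, edgeR adjusted p 8.8e-07). None of these libraries overlapped between the groups. Ciita was higher by 0.31 (SE 0.04, edgeR adjusted p 5.2e-05), from 71.5 ± 2.82 to 88.4 ± 0.920 CPM, and H2-DMb1 by 0.22 (SE 0.04, edgeR adjusted p 0.00062), from 60.3 ± 2.05 to 70.2 ± 1.41 CPM (SD, n = 3). Cd74 (0.11, SE 0.04, edgeR adjusted p 0.052) and H2-DMa (0.13, SE 0.04, edgeR adjusted p 0.064) missed the threshold, although every cKO Ctrl library was above every WT Ctrl library. Both passed it when only the 6 libraries compared were fitted. H2-DMb2, H2-Oa and H2-Ob were not called. The 5 genes called were all higher, beside 8.05% of all genes tested that were higher and 7.61% that were lower.

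After irradiation 7 of the 10 genes were higher in cKO than in WT and 0 lower, beside 23.9% higher and 23.8% lower among all genes tested. H2-Ab1 differed most among the classical chains, with 983, 931 and 933 CPM in WT IR and 1439, 1453 and 1474 CPM in cKO IR, a difference of 0.62 (SE 0.03, edgeR adjusted p 1e-12). H2-Eb1 was at 815, 700 and 754 CPM against 979, 1036 and 1029 CPM, higher by 0.42 (SE 0.04, edgeR adjusted p 2.8e-08). H2-Aa was at 801, 798 and 829 CPM against 1067, 1060 and 1076 CPM, higher by 0.40 (SE 0.03, edgeR adjusted p 1.2e-10). H2-DMb1 (0.50, SE 0.04), H2-DMb2 (0.51, SE 0.08), H2-Oa (0.28, SE 0.09) and H2-DMa (0.15, SE 0.05) were higher as well, and the groups did not overlap for any of the 7 genes. The invariant chain did not follow, since Cd74 had a log2 fold of -0.04 (SE 0.04) and its cKO IR libraries (3876 to 4025 CPM) lay within the range of WT IR (3715 to 4307 CPM). Ciita had 0.11 (SE 0.05, edgeR adjusted p 0.051). H2-Ob was not called, although its libraries did not overlap either. The share of all genes whose groups did not overlap was not counted, in this or the other comparisons. Without WT IR Input replicate 1, 8 were called, with Ciita at 0.16 and H2-Ab1 at 0.64. The call of H2-Oa was lost without WT IR replicate 2 (0.20, edgeR adjusted p 0.10) and without cKO IR replicate 1 (0.26, edgeR adjusted p 0.059). The comparison between irradiated genotypes shares libraries with the comparisons above, so that these values are not independent of them.

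**Figure D2:**
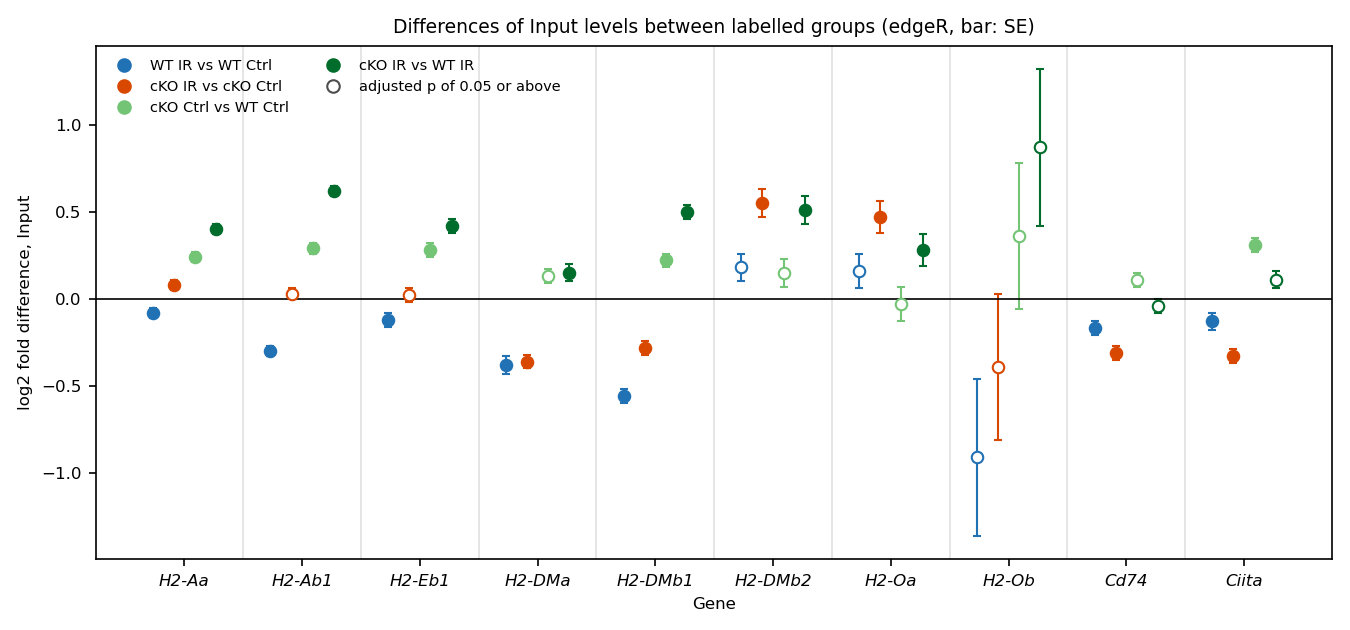
Log2 fold differences of Input levels for the 10 genes in 4 comparisons of labelled groups, with SE bars from edgeR and open circles where the adjusted p was 0.05 or above. The difference between cKO IR and WT IR was 0.62 for H2-Ab1 and -0.04 for Cd74.

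Genes that act around class II did not all move with it. H2-Eb2, a further class II beta gene of the locus, rose after irradiation in WT (0.28, SE 0.07) and in cKO (0.44, SE 0.07), while Btnl2 did not pass the test in any comparison and H2-Ea-ps had too few counts to be tested. Of 7 factors that act at class II promoters (the RFX subunits, the NF-Y subunits and Creb1), 1 fell in WT, beside 17% of all genes tested, and 3 in cKO, beside 23.8%. None rose in either. Nfyc fell by 0.26 (SE 0.06) in WT and by 0.36 (SE 0.06), the most of the 3, in cKO. Of these factors only Nfya differed between the unirradiated genotypes, with a log2 fold of -0.13 (SE 0.04) in cKO (7.61% of all genes tested were lower). Between the irradiated genotypes 1 was higher and 2 lower in cKO (23.9% and 23.8%). None of the 3 RFX genes passed the test in any of the 5 comparisons. Among 9 genes of invariant chain cleavage and antigen processing, 4 were higher and 1 lower after irradiation in WT (14.7% and 17% of all genes tested) as well as in cKO (21.8% and 23.8%). Ctsl, a protease that cleaves the invariant chain, rose by 0.35 (SE 0.03) in WT and 0.45 (SE 0.03) in cKO, and Unc93b1, which carries endosomal receptors, fell by 0.24 (SE 0.03) and 0.35 (SE 0.03). In the unirradiated genotypes 4 of the 9 were higher in cKO and 0 lower (8.05% and 7.61% of all genes tested), with Unc93b1 at 0.31 (SE 0.03).

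Of 7 genes of class II turnover and costimulation, 6 rose in WT and 7 in cKO after irradiation, beside 14.7% and 21.8% of all genes tested. The classical chains fell or stayed near their level in these comparisons. Cd80, which binds CD28 on T cells, rose by 0.83 (SE 0.08) in WT and 0.78 (SE 0.08) in cKO, and Cd83, which protects class II from ubiquitination, by 0.67 (SE 0.04) and 0.93 (SE 0.04). Cd40 was higher in cKO than in WT by 0.47 (SE 0.06) without irradiation and by 0.90 (SE 0.05) with it. Among 14 genes of interferon gamma signalling, which induces Ciita, 5 rose and 3 fell in WT (14.7% and 17% of all genes tested). In cKO 5 rose and 4 fell (21.8% and 23.8%). Cxcl10, a chemokine induced by interferon, fell by 1.21 (SE 0.15) in WT, and was higher in cKO than in WT by 0.82 (SE 0.13) without irradiation and 1.90 (SE 0.15) with it. In the unirradiated genotypes 6 of the 14 were higher in cKO and 0 lower (8.05% and 7.61% of all genes tested). In the irradiated ones 8 were higher and 3 lower (23.9% and 23.8%).

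Markers of cell types also differed between the groups, some in the direction of the class II genes and some in the other. Macrophage markers were mostly lower after irradiation in WT, where 7 class II genes fell, and mostly higher in cKO Ctrl, where 5 were higher. After irradiation in cKO, where 4 class II genes fell and 3 rose, 8 macrophage markers were lower and 1 higher (23.8% and 21.8% of all genes tested). Dendritic cell markers were mostly higher after irradiation in WT, and neutrophil markers were mostly lower in cKO Ctrl. After irradiation in WT, 9 of 9 neutrophil markers were lower, and 6 of 7 monocyte markers lower and 1 higher (17% and 14.7% of all genes tested). Their median log2 folds were -2.23 and -1.92, against -0.29 for the macrophage markers. The summed level of 12 dendritic cell markers, as CPM without TMM scaling, was 2262 to 2312 in WT Ctrl, 3224 to 3267 in WT IR, 2439 to 2459 in cKO Ctrl and 3283 to 3357 in cKO IR. Of the 10 tested, 8 were higher and 1 lower after irradiation in WT (14.7% and 17% of all genes tested). In cKO 6 were higher and 1 lower (21.8% and 23.8%). In WT the log2 folds of the tested dendritic cell markers ran from -2.34 to 0.71, the latter for Zbtb46, a transcription factor of dendritic cells. Xcr1 and Cd209a were at or near 0 in the Inputs. The sum of 10 macrophage markers was 6038 to 6193 CPM in WT Ctrl, 5220 to 5722 in WT IR, 6661 to 6846 in cKO Ctrl and 5719 to 5946 in cKO IR. In WT 7 of these markers fell after irradiation and 1 rose, and 8 were higher and 1 lower in cKO Ctrl than in WT Ctrl. For the latter comparison, 8.05% of all genes tested were higher and 7.61% lower. The sum of 9 neutrophil markers was 2603 to 2730 CPM in WT Ctrl, 663 to 706 in WT IR, 1160 to 1189 in cKO Ctrl and 572 to 577 in cKO IR, and that of 7 monocyte markers was 851 to 914, 320 to 389, 715 to 755 and 447 to 454 CPM in the same order. The part of these cell types in the differences of class II RNA was not tested. B cell markers were near 0, with 9 of 10 under 1 CPM in every Input group and a sum of 3.34 to 9.21 CPM. The sum of 10 T and NK cell markers was 1.61 to 2.96 CPM, and that of 6 tumour epithelial markers 5.59 to 8.05 CPM.

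The genes whose Input pattern was most like that of the 4 abundant class II genes (the mean log2 of CPM plus 0.5 of H2-Aa, H2-Ab1, H2-Eb1 and Cd74), by Pearson's r over the 12 Inputs, were Fcgr1 (0.996), Cd14 (0.995), Tpi1 (0.994), Slc13a3 (0.989) and Lpcat2 (0.989). Fcgr1 encodes a high-affinity Fc receptor and Cd14 a coreceptor for lipopolysaccharide. Cd14 went from 559 ± 8.03 CPM in WT Ctrl to 442 ± 27.1 in WT IR, and from 808 ± 12.7 in cKO Ctrl to 773 ± 10.5 in cKO IR (SD, n = 3). Against the same mean, of which the classical chains and Cd74 are a part, r was 0.98 for H2-Ab1 and H2-Eb1, 0.93 for H2-Aa and 0.86 for H2-DMb1, but 0.42 for Cd74, 0.44 for H2-DMb2 and 0.16 for H2-Oa. The 12 libraries fall into 4 groups, so r mainly reflects the group means and is a description.

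The m6A pull-down was read as IP over Input, with CPM scaled by TMM factors over all 24 libraries, so that a value is relative to the other genes of the libraries. RNA of the classical chains and the invariant chain was depleted in the IP in all 4 labelled groups, and RNA of the peptide editor and the transactivator was mostly enriched. H2-Aa stood at 920 ± 4.50 CPM in the WT Ctrl Inputs and at 345, 346 and 344 CPM in the WT Ctrl IP libraries, a log2 IP over Input of -1.42 (SE 0.02, edgeR adjusted p 2e-31). H2-Eb1 had -1.35 (SE 0.03), Cd74 -0.74 (SE 0.03), H2-Ab1 -0.72 (SE 0.02) and H2-Oa -0.76 (SE 0.12) in WT Ctrl. H2-DMa stood at 63.3 ± 2.99 CPM in the Inputs and at 134, 132 and 127 CPM in the IP, an IP over Input of 1.05 (SE 0.04, edgeR adjusted p 7.9e-23). No IP library of H2-Aa or H2-DMa came near the range of its Inputs. H2-DMb2 had 1.43 (SE 0.07), Ciita 0.91 (SE 0.04) and H2-DMb1 0.27 (SE 0.04), and H2-Ob had 2.52 (SE 0.28) on low counts.

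In WT Ctrl 5 of the 10 genes were enriched and 5 depleted, beside 38.1% and 37.5% of the 17373 genes tested. The counts were the same under the label WT IR (background 37.0% and 36.5%), with or without WT IR Input replicate 1, and under the label cKO IR (36.9% and 36.9%). Of the latter, H2-DMb2 (0.15, SE 0.07, edgeR adjusted p 0.044) lost its call with DESeq2, with RLE size factors, with a minimum of 50 counts, with the replicate block and in 4 of 6 fits without 1 library, which left 9 genes called. In cKO Ctrl 3 were enriched and 7 depleted (37.8% and 36.0%), since H2-DMb1 (-0.31, SE 0.04) and Ciita (-0.12, SE 0.04) were depleted there. The median of the 10 genes was -0.23 in WT Ctrl and -0.66 in cKO Ctrl, and that of all genes 0.02 in both. Against the irradiated Inputs of the other genotype label, H2-DMb2 of the libraries labelled WT IR changed from 0.28 (SE 0.07) to -0.23 (edgeR adjusted p 0.003), and the other 19 of 20 values for the irradiated libraries kept their direction and call but not their size. Under WT IR, H2-Ab1 went from -1.41 to -2.03, H2-Aa from -2.02 to -2.42, H2-Eb1 from -2.06 to -2.48, H2-DMb1 from 0.64 to 0.14 and H2-Ob from 2.27 to 1.40. Under cKO IR, H2-Ab1 went from -1.38 to -0.76, H2-Aa from -1.90 to -1.50, H2-Eb1 from -1.84 to -1.42, H2-DMb1 from 0.30 to 0.80, H2-DMb2 from 0.15 to 0.67 and H2-Ob from 1.84 to 2.71. For the classical chains the depletion was thus larger under WT IR and smaller under cKO IR with these Inputs.

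**Figure D3:**
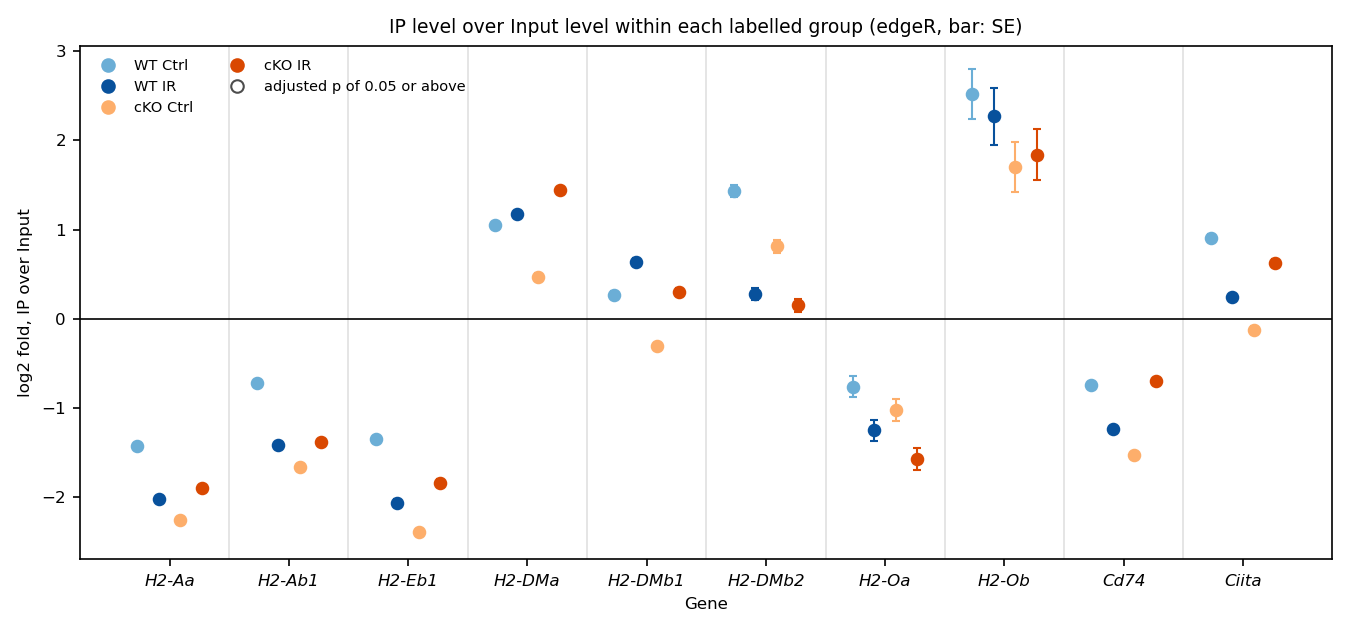
IP over Input of the 10 genes on the log2 scale in the 4 labelled groups, with SE bars from edgeR. H2-Aa and H2-Eb1 lay below -1.3 in every group and H2-DMa between 0.47 and 1.44.

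The difference of IP over Input between genotypes asks whether the pull-down of a transcript, relative to its Input, differed when Ythdf2 was targeted, and it was tested in the unirradiated libraries only. It was lower in cKO Ctrl for 8 of the 10 genes and higher for 0, beside 12.5% lower and 10.1% higher among all genes tested. The difference was -1.04 (SE 0.05, edgeR adjusted p 1.8e-17) for H2-Eb1, -1.03 (SE 0.06, edgeR adjusted p 5.8e-15) for Ciita, -0.94 (SE 0.03, edgeR adjusted p 3.9e-20) for H2-Ab1 and -0.83 (SE 0.03, edgeR adjusted p 8.3e-19) for H2-Aa. It was -0.80 (SE 0.04) for Cd74, -0.62 (SE 0.10) for H2-DMb2, -0.58 (SE 0.05) for H2-DMa and -0.57 (SE 0.05) for H2-DMb1. H2-Oa (-0.26, SE 0.17) and H2-Ob (-0.82, SE 0.39) did not pass the test. The median of the 10 genes was -0.81 and that of all genes 0.00. Other lists differed in this comparison as well. Of the interferon gamma genes 12 of 14 were lower and 0 higher, of the macrophage markers 7 of 10 lower and 2 higher, of the dendritic cell markers 7 of 11 tested lower and 0 higher, and of the neutrophil markers 0 of 9 lower and 7 higher. The part of these cell types in the difference was not tested. For H2-Ab1 and the other classical chains both sides of the ratio moved, with higher Input and lower IP levels in cKO Ctrl. H2-Ab1 had IP levels of 775, 764 and 753 CPM in WT Ctrl and 486, 495 and 488 CPM in cKO Ctrl. Ciita had 144, 144 and 148 CPM in WT Ctrl IP and 83.7, 89.8 and 91.8 CPM in cKO Ctrl IP, with no overlap for either gene.

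Compared among themselves by label, the IP libraries ordered the groups in another way than the Inputs did. H2-Aa had 345, 346 and 344 CPM in WT Ctrl IP, 210, 215 and 218 in WT IR IP, 225, 232 and 236 in cKO Ctrl IP and 309, 312 and 300 in cKO IR IP. Cd74 had 2965, 2936 and 2917 CPM, then 1890, 1854 and 1839, then 1805, 1887 and 1812, and then 2679, 2615 and 2566 in the same order. For both genes WT Ctrl was highest, the libraries labelled cKO IR came next and the other groups were lowest. In the library labels, WT IR vs WT Ctrl was lower for 10 of the 10 genes in the IP (background 27.7% lower and 24.6% higher), with H2-Ab1 at -0.99 (SE 0.02) and H2-DMb1 at -0.20 (SE 0.04). The call of H2-Oa (-0.33, SE 0.12) was lost in 3 of 6 fits without 1 library (edgeR adjusted p up to 0.13), which left 9. The comparison cKO IR vs cKO Ctrl was higher for 7 and lower for 0 (background 23.6% and 24%), with H2-DMa at 0.60 (SE 0.04) and Cd74 at 0.51 (SE 0.03). H2-DMa and Cd74 had fallen by 0.36 and 0.31 in the Inputs of the same labels.

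Between genotypes, 8 of the 10 genes were lower in cKO Ctrl IP than in WT Ctrl IP (background 13.7% lower and 13.1% higher), with H2-Eb1 at -0.75 (SE 0.03) and Ciita at -0.71 (SE 0.04). Under the irradiated labels 8 were higher in cKO IR and 0 lower (background 17% and 18.8%), with H2-Ab1 at 0.65 (SE 0.02) and H2-Eb1 at 0.64 (SE 0.03). H2-Oa and H2-Ob were called in neither. Lyz2 stood in the IP at 16116 ± 437 CPM in WT Ctrl and 19700 ± 159 under the label cKO IR, against 88.7 ± 2.75 in cKO Ctrl and 89.6 ± 1.30 under the label WT IR (SD, n = 3). By the summed counts of the 10 genes, the labelled groups with more class II RNA in the IP were those with high Lyz2. This did not hold for every gene. Under cKO IR, H2-DMb2 (22.1 against 24.1 CPM), H2-Oa (3.965 against 4.237) and H2-Ob (1.669 against 2.016) were below cKO Ctrl, though not called. The direction of the comparison of cKO IR with WT IR in the IP rests on these labels and would turn for all 8 genes if they were exchanged, and the comparisons of irradiated with unirradiated IP libraries would pair other libraries. Whether the irradiated IP libraries carry each other's labels was not tested.

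**Figure D4:**
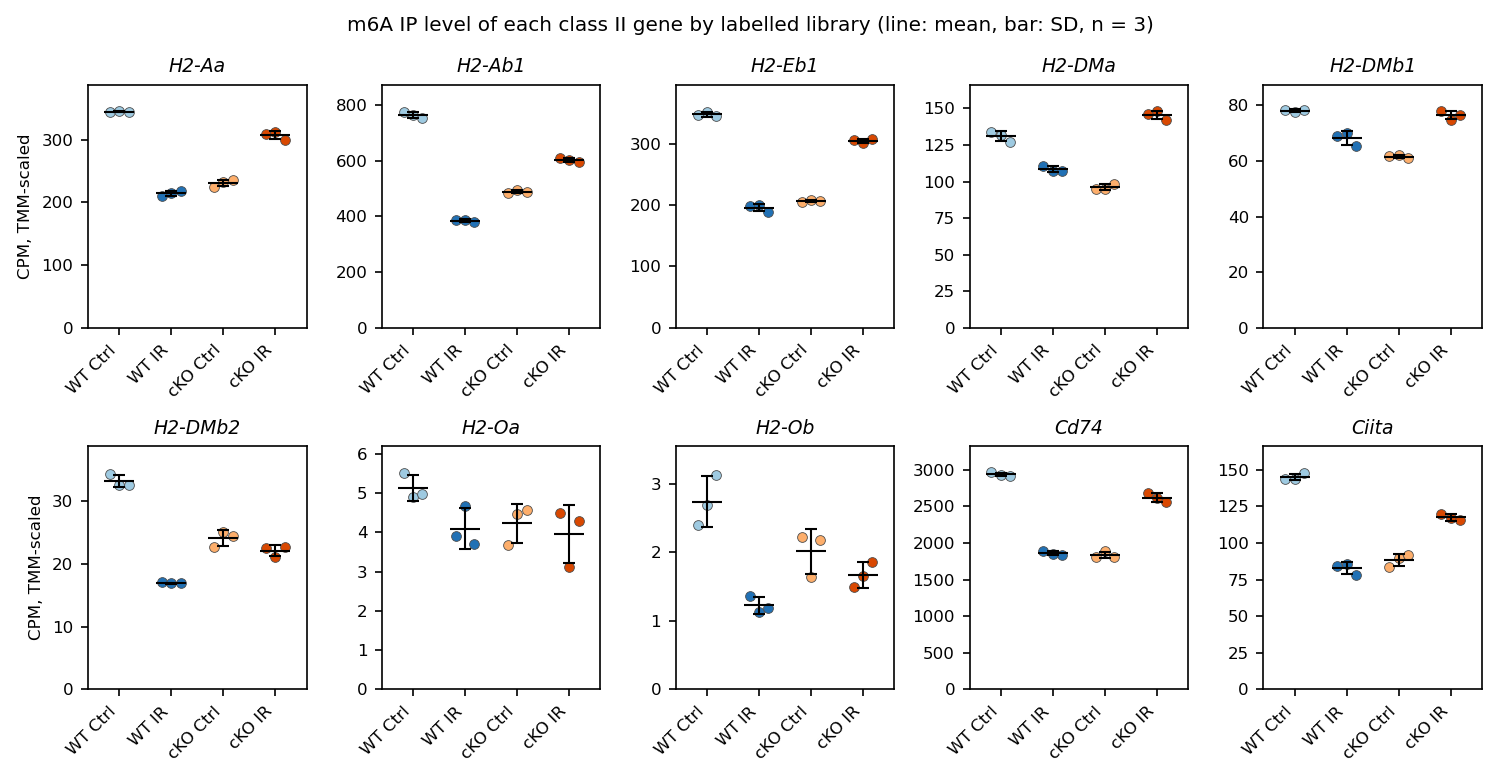
IP level of the 10 class II genes in CPM, scaled by TMM factors over the 24 libraries, by label, with each point a library, the line the mean and the bar the SD of 3 libraries. Cd74 was at 2917 to 2965 CPM in WT Ctrl and at 1805 to 1890 CPM in the libraries labelled WT IR and cKO Ctrl.

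Peaks called by the authors in each IP library lay over only 4 of the 10 genes: Ciita, H2-DMa, H2-DMb1 and H2-DMb2. No library had a peak over H2-Aa, H2-Ab1, H2-Eb1, Cd74, H2-Oa or H2-Ob. A peak present in all 3 IP libraries of a group lay over 4 of the 10 genes in WT Ctrl and under the label WT IR, over 2 in cKO Ctrl and over 3 under the label cKO IR, beside 27.7%, 23.3%, 25.8% and 20.8% of all genes tested. The 4 class II genes with at least 500 CPM in WT Ctrl Input (Cd74 and the classical chains) had 0 such peaks, where 25.7%, 18.8%, 19.2% and 12% of the 276 genes at that level had one in the same order of groups. Counted by peak, there were 13 in WT Ctrl, 7 under WT IR, 5 in cKO Ctrl and 7 under cKO IR. Over the whole genome the same rule gave 12181, 9927, 10918 and 9056 peaks in the same order. A missing peak says that the caller's threshold was not met, not that the transcript lacked m6A.

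Summits within 100 bases were joined into 25 sites, 14 in Ciita, 5 in H2-DMb2, 3 in H2-DMa and 3 in H2-DMb1. The 3 sites of H2-DMa were found in all 12 IP libraries. They lay in coding exon 3 (peak union chr17:34137021-34137352), coding exon 4 (chr17:34137831-34138063) and the 3′ UTR with the summit 93 bases after the stop codon (chr17:34138717-34138989). The first had a fold enrichment at the summit of 2.57 to 3.53 in WT Ctrl and 1.90 to 2.53 in cKO Ctrl. The ranges of that site did not overlap between these groups.

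H2-DMb1 had a site in coding exon 2 in 11 of 12 libraries and one in exon 3 in 8, of which 0 were cKO Ctrl libraries. The strongest site of H2-DMb2 (chr17:34148427-34148698) had its summit at 34148556, near the start of coding exon 3 at 34148551, and reached into the intron before it. Its folds were 4.74 to 7.93 in the 3 WT Ctrl libraries, 3.09 to 3.64 in the 3 labelled WT IR and 3.65 to 4.61 in the 3 cKO Ctrl libraries, and 3.50 in 1 library labelled cKO IR. An intronic site of H2-DMb2 was called in the 3 WT Ctrl libraries and in no other. Because these genes are near-identical copies, the placing of reads on each is uncertain.

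The strongest site of Ciita (chr16:10513003-10513211) had its summit at 10513131, near the start of coding exon 11 at 10513129, and reached into the intron before it. Its folds were 5.45 to 9.29 in 3 WT Ctrl libraries. It was also called in 2 libraries labelled WT IR (4.66 to 5.31), 1 cKO Ctrl library (4.33) and 2 labelled cKO IR (4.98 to 5.58). A site in the 3′ UTR of Ciita with its summit 204 bases after the stop codon was called in 3, 2, 0 and 3 libraries of the same groups. With summits joined within 100 bases, Ciita thus had no site in more than 1 of the 3 cKO Ctrl libraries. Each of the 3 did have a peak in coding exon 10, at chr16:10510601-10510826, chr16:10510910-10511091 and chr16:10511571-10511847. These peaks did not overlap each other, and all lay within the span of a WT Ctrl peak (chr16:10510588-10512332).

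**Figure D5:**
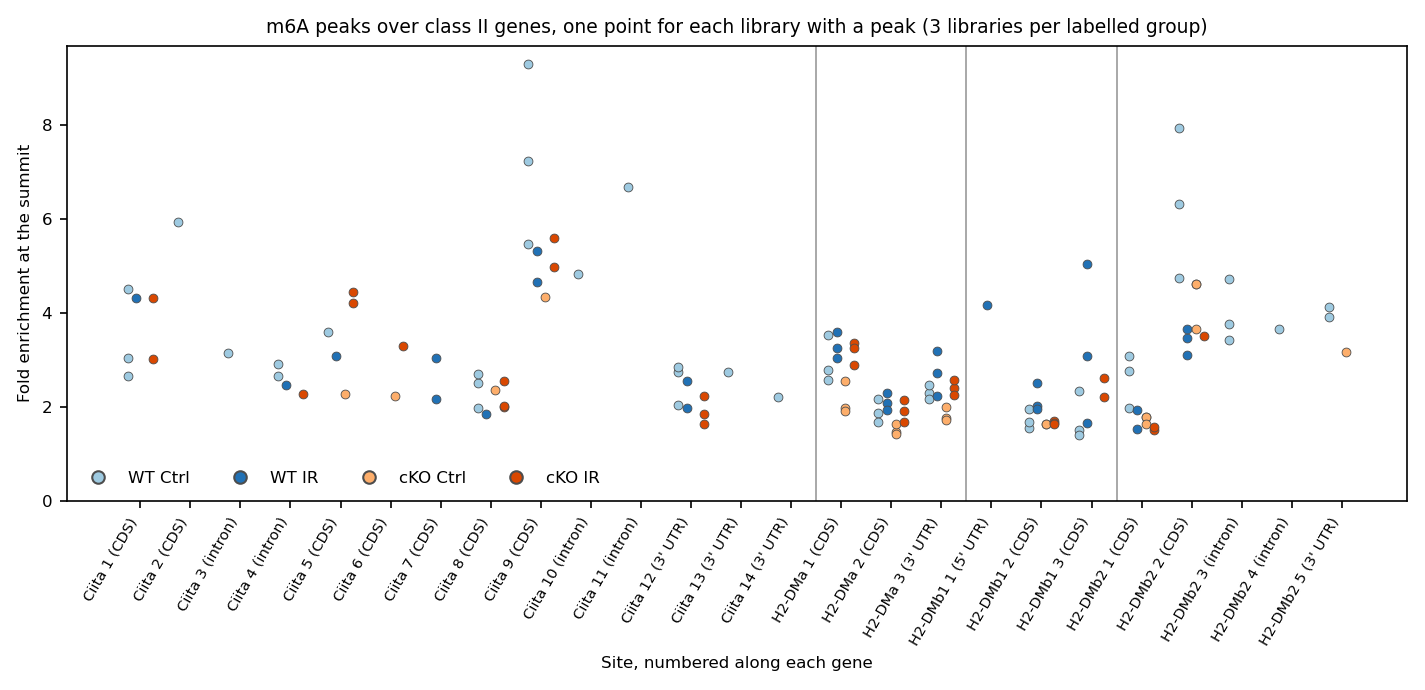
Fold enrichment at the summit (y axis) for each of the 25 sites of Ciita, H2-DMa, H2-DMb1 and H2-DMb2 (x axis, numbered along each gene), with a point for each library that had a peak there, coloured by labelled group. The 3 sites of H2-DMa have points from all 12 libraries, and no Ciita site has more than 1 point from cKO Ctrl. The cKO Ctrl peaks in exon 10 of Ciita fall at sites 5, 6 and 8, with 1 library each.

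The consensus at which m6A is deposited has the core GGAC, most often followed by T. Within 50 bases of the summit, on the strand of the gene, GGACT occurred at 2 of the 25 sites (8.0%) and GGAC at 9 (36.0%), beside 11.3% and 35.5% of 12181 windows of the same length around WT Ctrl peaks found in all 3 libraries. All windows were cut from the genome, so those near an exon edge include intron. The 2 stretches with GGACT, 1 from the site of H2-DMa found in all 12 libraries and 1 from the 3′ UTR site of Ciita absent in cKO Ctrl are shown because they carry the core at the sites described. All are on the plus strand of GRCm38, 5′ to 3′, with 1 match of GGAC or GGACT in capitals. The H2-DMb1 stretch also begins with GGAC, left in lower case.
H2-DMb1, coding exon 2, chr17:34155481-34155505: ggaccccacaGGACTtcacatactg
Ciita, coding exon 10, chr16:10511602-10511626: tacacttacaGGACTctatgtcagc
H2-DMa, coding exon 3, chr17:34137210-34137233: cctatgacgaGGACgaactcttct
Ciita, 3′ UTR, chr16:10525899-10525922: cacgaggaaaGGACacaagtcttg
The Ciita stretch in exon 10 belongs to a site whose summit was placed there in 2 libraries labelled WT IR only. Peaks with their summit at the next site (near chr16:10511780) covered the same stretch. They came from 3 WT Ctrl libraries, 1 labelled WT IR, 1 cKO Ctrl library and 3 labelled cKO IR. A match marks letters near a summit, not a modified base.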

How the data were processed

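CD11b+ cells were profiled in 12 Input and 12 m6A IP libraries, grouped by their labels. The authors removed adapters (Trimmomatic 0.39), mapped reads to mm10 with HISAT and ran HTSeq on a GENCODE annotation. The values they deposited are raw counts per gene. The deposited peaks were called by the authors per IP library with MACS2 and bedtools 2.26.0, and give a fold (ratio) of enrichment at the summit, −log10 p and q values, a score set from the q-value and a summit position.

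Counts were tested here with edgeR 4.0.16 (quasi-likelihood, TMM factors, at least 10 counts in at least 3 libraries, Benjamini-Hochberg adjustment, R 4.3.3), with 1 fit over the 12 Inputs and 1 over all 24 libraries. The code was tested on simulated data. DESeq2 1.42.0, other scaling, other filters, fewer libraries, a replicate block and leaving out each library were tried. Same-numbered libraries did not deviate together (0 of 18 Input pairs, 0 of 12 Input and IP pairs and 0 of 18 IP pairs had a correlation over 0.1), so numbers were not used as pairs. No replicates were identical. A gene had a peak when peaks of all 3 libraries of a group overlapped by at least 1 base. Identifiers were matched to GENCODE vM21 (54409 of 54446), and levels per kb used the principal transcript. Genes named from other lists were the 3 with the largest called difference in each list and comparison. The members, lists and rules were chosen with earlier results of these data known.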

Additional observations from a re-analysis of the deposited data

Results flagged for a closer look

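The irradiation effect on Input RNA was called different between genotypes for 6 of the 10 class II genes, beside 30.2% of all genes tested. The test was the interaction term of edgeR's quasi-likelihood fit. The effect in cKO minus that in WT was 0.36 for H2-DMb2, 0.33 for H2-Ab1, 0.28 for H2-DMb1, 0.16 for H2-Aa, -0.14 for Cd74 and -0.20 for Ciita on the log2 scale. Over the 12 fits without 1 library, Cd74 kept its call in 3, H2-DMb2 in 7 and Ciita in 8. The number of members called ranged from 3 to 8. The level in the m6A IP relative to Input was lower in cKO Ctrl for 8 genes and higher for 0 by the same kind of term. Among all genes tested 12.5% were lower and 10.1% higher. H2-Eb1, H2-Ab1, H2-Aa and Cd74 were depleted in the IP in both unirradiated groups and had no peak in any library. The difference, cKO Ctrl minus WT Ctrl, was -1.04 for H2-Eb1, -1.03 for Ciita, -0.94 for H2-Ab1, -0.83 for H2-Aa, -0.80 for Cd74, -0.62 for H2-DMb2, -0.58 for H2-DMa and -0.57 for H2-DMb1. No outlier test was run on groups of 3 libraries. WT IR Input replicate 1 differed most from the others of its group over all genes, and without it the interaction was 0.44 for H2-DMb2, 0.35 for H2-Ab1, 0.29 for H2-DMb1, 0.15 for H2-Aa, -0.10 for Cd74 and -0.14 for Ciita, and these 6 genes were called together with H2-Eb1 (0.20) and H2-Oa (0.40).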

How the results depend on the processing

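Over the alternatives other than leaving out a library, 741 of 755 values of single class II genes kept their direction and their side of the threshold, and over the fits without 1 library 903 of 960 did. The cause of the changes was not tested. With only the 6 libraries compared, the genes called in WT IR vs WT Ctrl Input fell from 7 to 4 and the genes called among all in cKO Ctrl vs WT Ctrl rose from 2520 to 3870. Without 1 library the called class II genes ranged from 4 to 7 in WT IR vs WT Ctrl (4 without WT Ctrl Input replicate 1 or 2) and from 3 to 8 in the interaction (3 without cKO Ctrl Input replicate 2). Peaks with a fold of at least 4 in all 3 libraries numbered 2 in WT Ctrl and 0 in WT IR, cKO Ctrl and cKO IR, against 13, 7, 5 and 7 at the authors' threshold, and peaks in at least 2 of 3 libraries numbered 11 under cKO IR.

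Direction turned in fits without 1 library only where nothing was called: H2-Oa in cKO Ctrl vs WT Ctrl Input (-0.13 to 0.02), Cd74 in cKO IR vs WT IR Input (-0.10 to 0.01), H2-DMa in the interaction (0.00 to 0.06), and H2-Oa in the IP for cKO IR vs cKO Ctrl (-0.19 to 0.05) and for cKO IR vs WT IR (-0.15 to 0.10). Against the Inputs of the other genotype label, H2-DMb2 in IP over Input under WT IR turned from 0.28 to -0.23. With the replicate block, 139 of 140 values kept their call, 7 of the 10 genes were still called in WT IR vs WT Ctrl Input (4883 genes in all), and the exception was H2-DMb2 in IP over Input under cKO IR (0.15, edgeR adjusted p 0.053). That call was also lost with DESeq2 (adjusted p 0.061), RLE size factors (0.069) and at least 50 counts (0.095), and in 4 of 6 fits without 1 library. Limits are the pooled mice, the low counts of H2-Ob, the near-identical H2-DMb genes, the unknown strand setting of the counting, and the Lyz2 levels of the irradiated IP libraries.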
